A study of Mus musculus with 2 samples.

Results

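Hox genes are the homeobox transcription factor genes that give the cells of the vertebrate body their position along the head-to-tail axis and, in the limb, along the axis from shoulder or hip to digits. The mouse has 4 Hox clusters, Hoxa on chromosome 6, Hoxb on chromosome 11, Hoxc on chromosome 15 and Hoxd on chromosome 2. Their genes are numbered by 13 paralogous groups, from group 1 at the anterior end of a cluster to group 13 at the posterior end. Low-numbered genes mark anterior parts of the body, genes of groups 9 to 13 pattern the limb from its base to its tip, and mesenchymal cells taken from different sites of an adult or newborn animal keep different sets of Hox transcripts in culture. The members were all probes whose RefSeq transcript belongs to a Hoxa, Hoxb, Hoxc or Hoxd gene, with the brightest probe standing for a gene. Of 43 such genes in the RefSeq table, 41 had a probe, out of 20660 genes named on the arrays. These were all 39 protein-coding Hox genes and 2 transcripts of the opposite strand, Hoxa11os and Hoxd3os1, whereas Hoxb3os and Hoxb5os had none.

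Primary articular chondrocytes, the cartilage cells of joints, came from 6-day-old C57BL/6J mice without a named genetic change, and the sources used here give neither the joints nor the number of animals pooled. Cells grew for 48 h on fibronectin-coated silicon chambers and were stretched by 10% at 0.5 Hz for 30 min. One Agilent one-colour array was hybridised with RNA from before loading and 1 with RNA from 24 h after loading, both on the same slide. No array of unloaded cells from the later time was used here, so the strain and the day of culture that followed it cannot be told apart. With 1 array per time point there are no replicates and no test was run, and precision is limited by the number of arrays. Every error below is the scanner software's own error of both spots, which covers the measurement within an array only.

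Cartilage identity was checked first. All 16 chondrocyte markers stood well above background before and after loading, among them Col2a1 with intensities of 499540 before loading and 474880 at 24 h. Of the markers of other cells, 7 of 7 fibroblast and perichondrium, 6 of 6 macrophage and leukocyte, 4 of 5 synovium, 5 of 7 skeletal muscle, 3 of 5 osteoblast, 2 of 5 endothelial and 2 of 6 erythroid genes were also detected, where the share over all named genes was 68.9%. On neither array were Myod1 and Ckm of muscle, Dmp1 and Sost of bone, and Cdh5, Tek and Emcn of endothelium. On both arrays, however, were Myog, Acta1, Myh3, Myh8 and Tnnt3 of muscle, Sp7, Phex and Bglap2 of bone, and Kdr and Pecam1 of endothelium. Among these lists the summed intensity was largest for fibroblast and perichondrium genes, 214880 before loading and 218060 at 24 h. The summed intensity of the muscle list was 1950 before loading and 1716 at 24 h, that of the macrophage and leukocyte list 29694 and 28783, and that of the endothelial list 12899 and 12524. The last 2 sums rest mostly on 1 gene each, picked out after the values were seen. These were Itgam (25496 and 24759) and Kdr (12774 and 12375). Between the time points the list that moved furthest was that of hypertrophic chondrocytes, with a median log2 ratio of -0.89. In it 3 of 7 genes (Col10a1, Ihh and Ibsp) were more than 2-fold lower. Its summed intensity was 29246 before and 15391 at 24 h, of which Col10a1 alone made up 18910 and 6485. Alpl (-0.89) and Spp1 (-0.48) were also lower, while Mmp13 (0.49, error 0.20) and Pth1r (0.06, error 0.20) were higher. In the other lists, Myh8 of muscle (log2 ratio 1.15) and Ptprc of leukocytes (1.14) were the only genes on both arrays more than 2-fold changed by their brightest probe. Tnnt3 of muscle went the other way, at -0.78 on its brightest probe and -1.004 on its other detected probe. Ptprc was dim, at 20.9 and 46.1, and 6 of the 26 spots beside it were more than 2-fold up. The part of these cells in the Hox values was not tested.

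Promoter sequences show the kind of DNA from which these transcripts start. Upstream windows of 250 bases, ending at the base before the annotated start, were taken from RefSeq (GRCm38.p6), which held 24 such windows for 22 of the 39 coding Hox genes. Capitals mark CpG dinucleotides, the substrate of DNA methylation and a feature of promoters bound by Polycomb proteins. Shown are Hoxa11, which was detected in each of 10 spots on both arrays, Hoxd4, which had the highest log2 ratio of the coding Hox genes, and Hoxb1 and Hoxd12, which were on neither array well above background.
Hoxa11 (chr6:52245811-52246060, minus strand): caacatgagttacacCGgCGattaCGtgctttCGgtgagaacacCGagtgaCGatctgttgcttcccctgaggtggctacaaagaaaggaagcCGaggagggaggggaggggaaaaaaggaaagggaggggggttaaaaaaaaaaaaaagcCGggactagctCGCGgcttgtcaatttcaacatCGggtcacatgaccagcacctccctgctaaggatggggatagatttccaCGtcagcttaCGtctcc
Hoxd4 (chr2:74721728-74721977, plus strand): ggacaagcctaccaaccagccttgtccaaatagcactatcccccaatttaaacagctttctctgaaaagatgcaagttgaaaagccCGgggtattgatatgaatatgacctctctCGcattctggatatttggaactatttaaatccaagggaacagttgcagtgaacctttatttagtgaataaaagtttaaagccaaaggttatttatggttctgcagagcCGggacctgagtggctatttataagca
Hoxb1 (chr11:96365508-96365757, plus strand): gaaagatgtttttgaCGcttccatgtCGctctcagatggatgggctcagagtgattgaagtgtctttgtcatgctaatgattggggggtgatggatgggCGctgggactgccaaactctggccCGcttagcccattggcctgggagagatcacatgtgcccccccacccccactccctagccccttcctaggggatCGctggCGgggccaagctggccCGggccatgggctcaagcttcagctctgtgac
Hoxd12 (chr2:74674763-74675012, plus strand): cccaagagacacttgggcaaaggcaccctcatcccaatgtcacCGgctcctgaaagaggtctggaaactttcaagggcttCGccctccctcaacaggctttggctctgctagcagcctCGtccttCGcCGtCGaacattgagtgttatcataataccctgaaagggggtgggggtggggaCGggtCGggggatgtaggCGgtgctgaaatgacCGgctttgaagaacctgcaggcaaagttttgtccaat
The Hoxa11 window held 13 CpG, that of Hoxd12 10, that of Hoxb1 7 and that of Hoxd4 3. Over the 24 Hox windows the median was 12.5 CpG, against 6 over all 32851 windows of the table. Among the Hox windows, the 15 of the 14 detected genes had a median of 13 CpG and the 8 of the 7 genes on neither array a median of 12. One form of the Pbx-Hox element, TGATTNAT, searched on both strands, was found in 2 of 24 windows (8.33%, against 2.83% of all windows), those of Hoxa2 and Hoxd11. Near matches, such as TGATGGAT in the Hoxb1 window, were not counted, so a window without this form may hold another. CCAAT on either strand was in 14 of 24 windows (58.3%, against 33.9%) and TATAAA in 4 of 24 (16.7%, against 12.4%). These matches describe letters in the windows and say nothing of binding.

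The first question was which Hox genes these chondrocytes expressed, by cluster and position. Of the 39 coding Hox genes, 26 (66.7%) were detected, that is, well above background on both arrays, a share close to the 68.9% of all named genes. A further 2, Hoxa13 and Hoxc13, were well above background only before loading (3.64% of all named genes were so on exactly 1 array), and 11 were on neither array. The clusters differed in their counts. Detected genes numbered 10 of 11 in Hoxa, 7 of 9 in Hoxc, 5 of 9 in Hoxd and 4 of 10 in Hoxb.

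**Figure D1:**
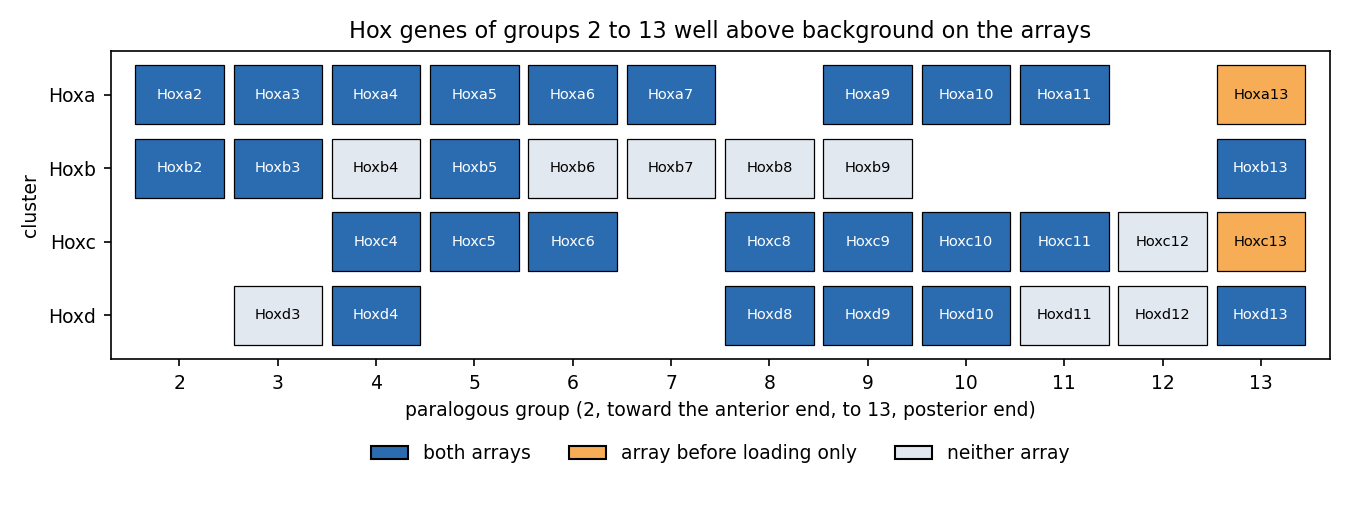
Coding Hox genes of groups 2 to 13 arranged by cluster (rows) and paralogous group (columns), coloured by the arrays on which the brightest probe was well above background. The drawn genes of the Hoxa and Hoxc clusters are filled up to group 11, while Hoxb4, Hoxb6, Hoxb7, Hoxb8 and Hoxb9 were on neither array.

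Hoxa and Hoxc were detected as unbroken runs. Every Hoxa gene from Hoxa2 to Hoxa11 was on both arrays, as was every Hoxc gene from Hoxc4 to Hoxc11, and in both clusters only the posterior end was missing (Hoxa13, Hoxc12 and Hoxc13). Hoxd held 1 run from Hoxd4 to Hoxd10 and the isolated Hoxd13, with Hoxd1, Hoxd3, Hoxd11 and Hoxd12 on neither array. In Hoxb, Hoxb2, Hoxb3, Hoxb5 and Hoxb13 were detected, while Hoxb1, Hoxb4 and the genes from Hoxb6 to Hoxb9 were not. Across clusters, detection reached 8 of 12 genes in groups 1 to 4, 8 of 11 in groups 5 to 8 and 8 of 10 in groups 9 to 11, the last being the genes known for the upper and middle limb segments. It was 2 of 6 in groups 12 and 13, which mark the most distal limb and the tail end. All 3 genes of group 5 and all 3 of group 10 were detected, and neither gene of group 12 was.

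A gene without detection is not shown to be silent, because probes differ in how well they report their transcript and the sequences of the probes were not used here. The dimmest detected gene was Hoxd13, a gene of digit and genital patterning, with intensities of 19.6 before and 25.2 at 24 h. Just outside the limit were Hoxb6 (15.4 and 20.2) and Hoxb9 (15.4 and 20.0). Others were far outside it, such as Hoxb1 of the hindbrain, at 4.36 and 4.44, and Hoxd12, at 3.91 and 3.97. With the software's more lenient flag, a signal that is positive and significant, the count of coding genes was 33 of 39 in place of 26. Hoxb3 had a dimmer second probe that was on neither array although its brightest one was on both.

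**Figure D2:**
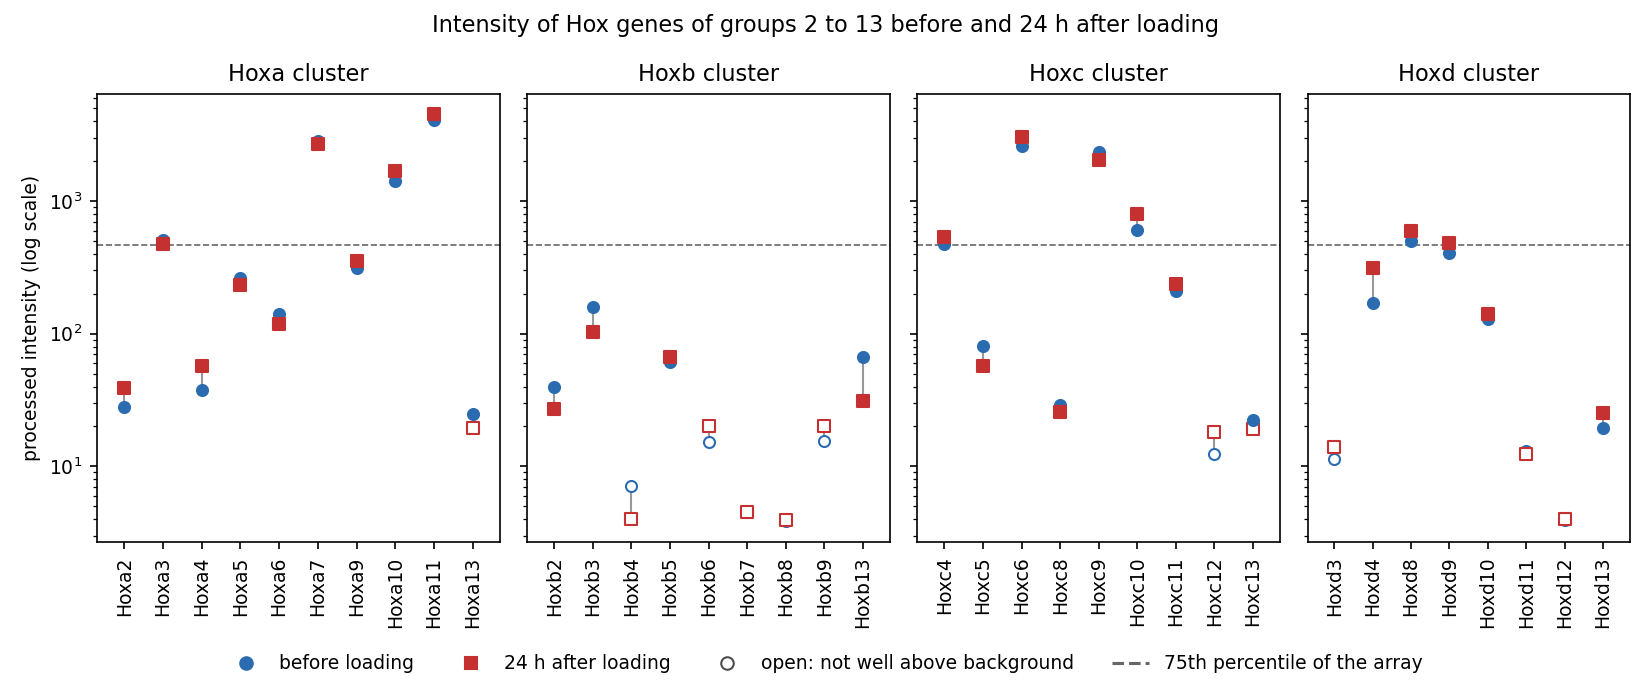
Processed intensity (log scale) of the brightest probe of each coding Hox gene of groups 2 to 13 before loading (circles) and 24 h after loading (squares), by cluster and in the order of the paralogous groups. Open symbols are not well above background and the dashed line is the 75th percentile of the array before loading, 466; paired symbols lie close together for most genes, and the widest gaps among genes on both arrays are those of Hoxb13 and Hoxd4.

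The second comparison asked how the Hox genes differed 24 h after loading. Each array was scaled to its own 75th percentile (466.37 before and 466.15 at 24 h), and a positive log2 ratio means a higher level at 24 h. In bulk RNA, fewer cells of a type and less RNA per cell cannot be told apart. The detected Hox genes differed little, with none more than 2-fold higher (0.668% of all detected genes were) and 1 of 26, Hoxb13, more than 2-fold lower (1.83%). At 1.5-fold, 2 were higher, Hoxa4 and Hoxd4 (3.65% of all detected genes), and 2 lower, Hoxb3 and Hoxb13 (5.84%). The log2 ratio was above 0 in 15 of 26 genes (47.6% of all detected genes), or in 17 when arrays were scaled by their medians or to the spike-in controls. The median was 0.14, against -0.01 over the 14231 detected genes. The ratio passed its own within-array error in 13 genes (42.8% of all detected genes) and passed 2 such errors in 5 (16.4%), Hoxa4, Hoxb3, Hoxb13, Hoxc5 and Hoxd4. These shares lie near those of all genes and give no result particular to the Hox family.

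**Figure D3:**
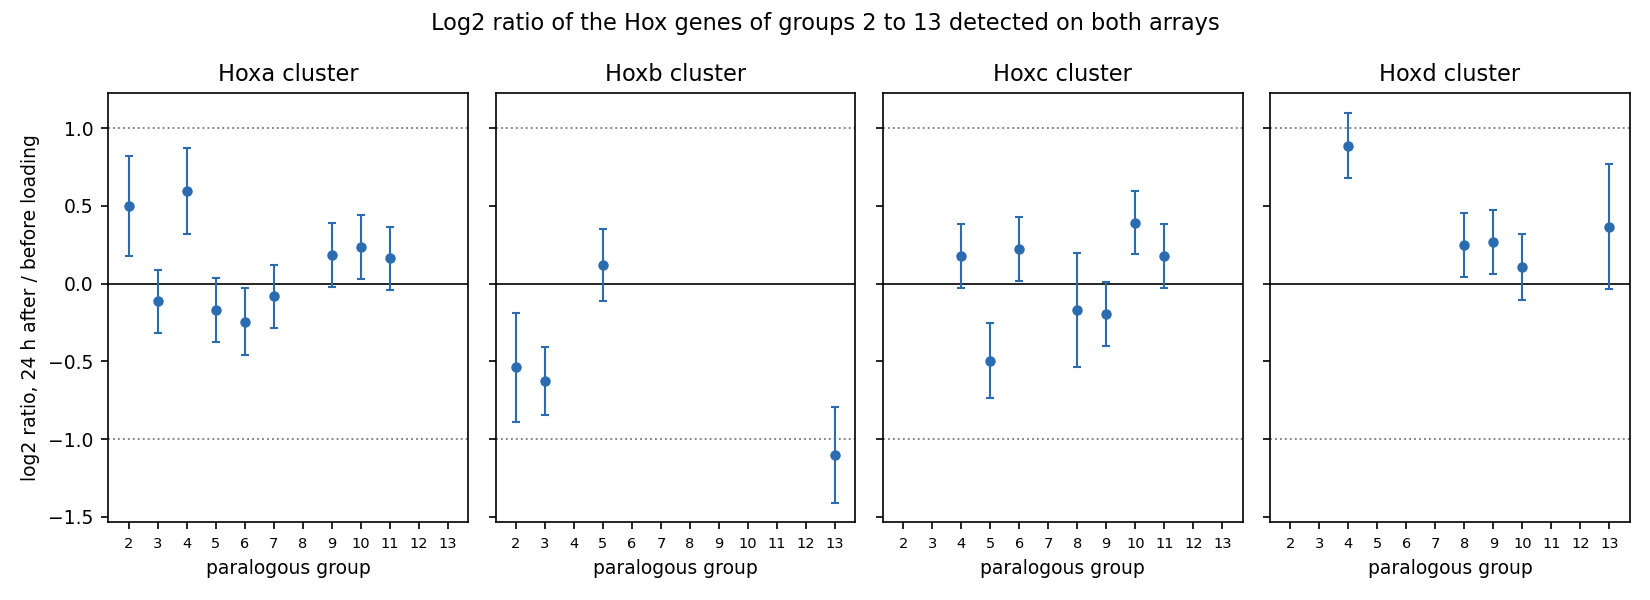
Log2 ratio of 24 h after over before loading for the coding Hox genes of groups 2 to 13 on both arrays, by paralogous group in each cluster; bars are the within-array error and dotted lines mark a 2-fold difference. The 5 Hoxd genes lie above 0, 3 of the 4 Hoxb genes lie below it, and Hoxb13 at -1.10 is the only gene past 2-fold.

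Hoxb13, a gene of the tail end of the body and the prostate, read 67.3 on the array before loading and 31.3 on that of 24 h. That is a log2 ratio of -1.10 with an error of 0.31, or 2.15-fold lower. The ratio passed 1 by less than its error, and with normexp background correction it was -0.36. Both intensities are dim. Of the 8 detected Hox genes under 100 on both arrays, 4 were higher and 4 lower, and 2.29% of all detected genes in that range were more than 2-fold lower.

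The other Hoxb genes were also dim to moderate. Hoxb3, a gene of the hindbrain and neck, went from 160 to 104, a log2 ratio of -0.63 (error 0.22) that was -0.37 with normexp correction. Hoxb2, which acts in the hindbrain with Hoxb1, read 39.6 and 27.3 (-0.54, error 0.35), and -0.09 with normexp correction. Hoxb5, a gene of the shoulder and thoracic level, was nearly level at 61.6 and 66.8 (0.12, error 0.23, and -0.03 with normexp correction). Thus 3 of the 4 Hoxb genes read lower at 24 h under every scaling run, and the median over all 4 was -0.58. A second probe of Hoxb3 was not detected and gives no check.

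The Hoxd genes differed the other way. Hoxd4, a gene of the neck vertebrae, read 169 before and 313 at 24 h, a log2 ratio of 0.89 (error 0.21) or 1.85-fold higher. It was the widest difference among the Hox genes at 100 or over on an array, and of the 30 spots around it, up to 100 µm away, 0 were more than 2-fold up and 2 more than 2-fold down. The genes of the limb part of the cluster had smaller ratios. Hoxd8 read 499 and 592 (0.25, error 0.20), Hoxd9, a gene of the upper limb segment, 405 and 486 (0.27, error 0.20), and Hoxd10 130 and 140 (0.11, error 0.21). Hoxd13 had a log2 ratio of 0.37 within its error of 0.40, and 3 spots beside it had risen more than 2-fold. All 5 detected Hoxd genes were therefore higher at 24 h, with a median of 0.27 and with Hoxd8, Hoxd9 and Hoxd4 past their errors. They stayed higher under every scaling run. Scaling by medians, by detected probes or to spike-in controls raised every ratio by the same amount, however, and so could not turn them lower.

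In the Hoxa cluster, the genes of groups 9 to 11 shared a direction. Hoxa9 read 314 and 356 on its brighter probe (log2 ratio 0.18, error 0.21) and 269 and 330 on the other (0.29), with 3 spots beside the brighter one more than 2-fold higher. Hoxa10, a gene of the upper limb and of the lumbar spine, read 1427 and 1679 (0.24, error 0.20). Hoxa11, which with Hoxd11 shapes the forearm and lower leg, read 4071 and 4550 (0.16, error 0.20). Only Hoxa10 passed its error, and only narrowly. All 3 were higher under every scaling run, but scaling by medians, by detected probes or to spike-in controls could only raise them.

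Hoxa11 is the one detected Hox gene with repeated spots, 10 on each array. Before loading they ranged from 3811 through a median of 4088 to 4352, and at 24 h from 4268 through 4546 to 4700. A single spot at 24 h lay at or under the highest spot before loading, and each of the 10 spots was higher at 24 h, by 0.06 to 0.27 with a mean of 0.16 and an SD of 0.06 on the log2 scale. The spots repeat the reading of 2 RNA samples and are not replicates of the loading. The error of 0.20 given above for Hoxa11 is the mean of the single-spot errors and was not reduced for the 10 spots. Hoxa11os, the transcript of the opposite strand of Hoxa11, did not share the direction, with 2227 and 2131 (-0.06, error 0.20).

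**Figure D4:**
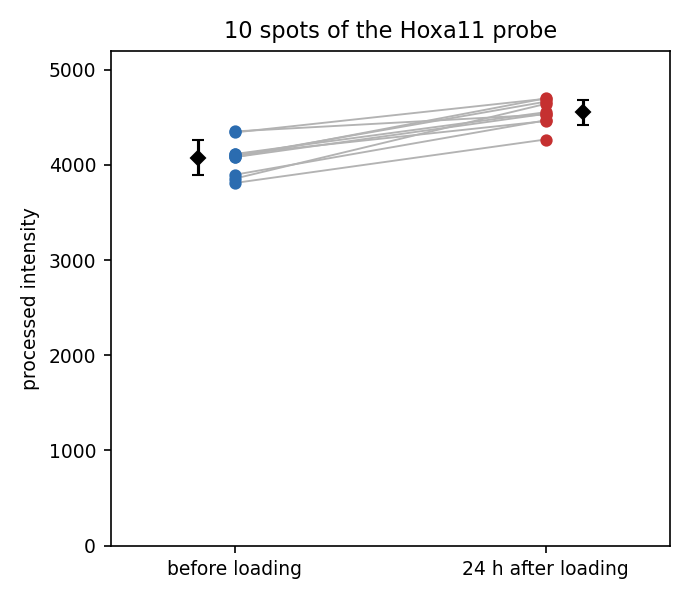
Processed intensity of the 10 spots of the Hoxa11 probe on the array before loading and the array 24 h after loading, joined by their position on the array; diamonds and bars are the mean and SD of the 10 spots of each array. Each line runs upward, from a median of 4088 to a median of 4546, and the spots are repeat readings of 1 sample per time point.

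The more anterior Hoxa genes were nearly level or slightly lower, apart from 2 dim ones. Hoxa3 of the throat and neck read 511 and 472 (-0.11, error 0.20) and Hoxa7 of the thoracic level 2852 and 2691 (-0.08, error 0.20). Hoxa5, a gene of the neck, shoulder and lung, read 262 and 233 (-0.17, error 0.21). Of these ratios none passed its error, and that of Hoxa7 changed sign under some of the scalings. Hoxa6 read 140 and 118 (-0.24), just past its error of 0.21. The exceptions were Hoxa2, which gives the second branchial arch its identity, at 27.8 and 39.3 (0.50, error 0.32), and Hoxa4 at 37.9 and 57.4 (0.60, error 0.28). With normexp correction, whose offset draws dim ratios toward 0, they became 0.19 and 0.20. The errors belong to the uncorrected signal. As a group the 7 detected Hoxa genes anterior to Hoxa9 had a median log2 ratio of -0.08 with 2 higher, and the 3 from Hoxa9 to Hoxa11 a median of 0.18 with all 3 higher.

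The Hoxc genes went both ways. Hoxc10, a gene of the lumbar spine and hindlimb, read 605 and 793 (0.39, error 0.20) and had the highest ratio of the cluster. Hoxc6 of the thoracic level and upper limb read 2600 and 3029 (0.22, error 0.20), Hoxc4 473 and 535 (0.18, error 0.20) and Hoxc11, a hindlimb gene, 210 and 237 (0.18, error 0.21). Lower at 24 h were Hoxc5, at 81.2 and 57.5 (-0.50, error 0.24), Hoxc9, at 2361 and 2060 (-0.20, error 0.20), and Hoxc8, at 29.0 and 25.8 (-0.17, error 0.37, and 0.11 with normexp correction). Of these 7 genes, 4 were higher and 3 lower, and neighbours along the cluster could differ in sign, as Hoxc9 and Hoxc10 did.

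By paralogous group, all 3 detected genes of group 4 (Hoxa4, Hoxc4 and Hoxd4) and all 3 of group 10 (Hoxa10, Hoxc10 and Hoxd10) were higher at 24 h, and both detected genes of group 3 (Hoxa3 and Hoxb3) were lower. In groups 9 to 11 together, 7 of 8 detected genes read higher (median 0.18), with Hoxc9 as the exception, where 47.6% of all detected genes did. Of these 8 ratios 3 passed their within-array error. In groups 5 to 8 it was 3 of 8, with a median of -0.13. These groupings were described after the values were seen, and 22 of the 26 ratios lie within 1.5-fold.

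**Figure D5:**
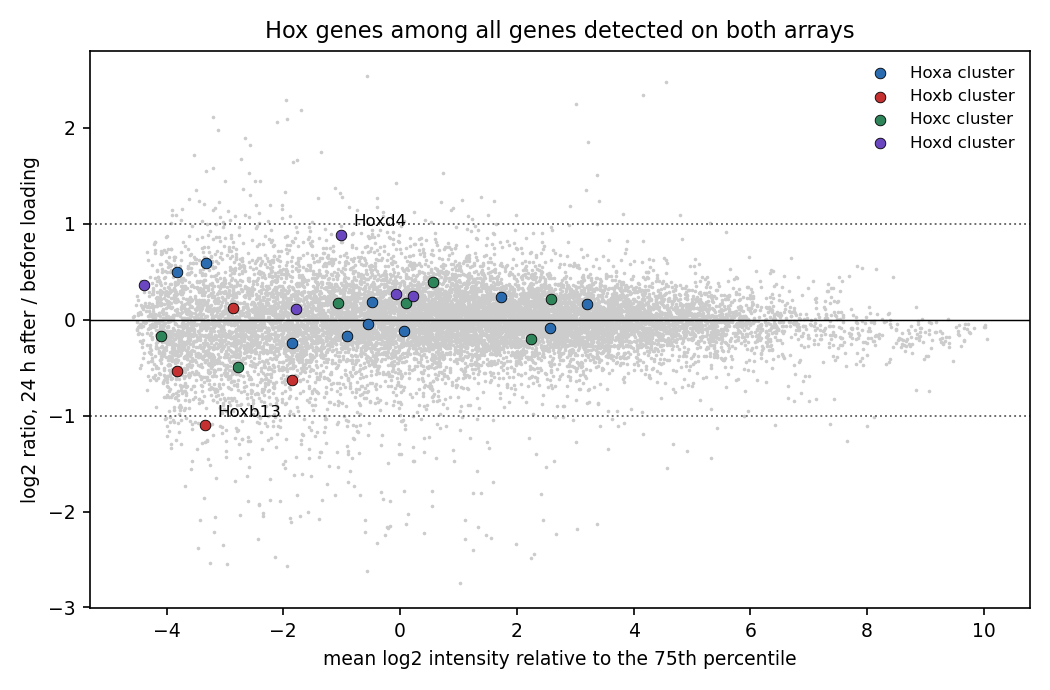
Log2 ratio of 24 h after over before loading against mean log2 intensity relative to the 75th percentile for the 14231 genes on both arrays (grey) and the 26 coding Hox genes (coloured by cluster); dotted lines mark a 2-fold difference. The Hox points lie within the cloud of all genes, and Hoxb13, the only one past 2-fold, lies among the dim genes.

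Hox genes on 1 array only were close to background on both. Hoxa13, a gene of the hand and foot, read 24.8 before loading and 19.4 at 24 h (log2 ratio -0.35, error 0.45). Its other probe, likewise well above background only before loading, had a ratio of -0.13 (error 0.45). Hoxc13, known for hair and nails, read 22.4 and 19.2 (-0.22, error 0.47). Hoxd3os1 was on the array of 24 h only, at 20.3 and 27.6 (0.44, error 0.45). All 3 lie at the limit of detection, and none of these ratios passed its error.

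Hox proteins bind DNA with TALE homeodomain partners, the Pbx, Meis and Pknox proteins. Of 9 such genes, 8 were detected on both arrays (68.9% of all named genes were), with a median log2 ratio of -0.01 and none of the 8 past 2-fold. The largest ratios were those of Pbx2, at 0.37, and Pknox2, at 0.21. Pbx4 was well above background only before loading, at 38.7 and 17.6, at least 2.17-fold higher before.

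Polycomb proteins keep Hox genes silent outside their domain and trithorax proteins keep them active inside it. Of 23 Polycomb genes, 22 were detected (68.9% of all named genes were), with a median of 0.03. Among the 22, 1 was more than 2-fold lower (1.83% of all detected genes were). That gene was Phf19, an accessory subunit of the H3K27 methyltransferase complex, which read 425 before loading and 188 at 24 h (log2 ratio -1.17, error 0.21). Mtf2, which encodes a related accessory subunit, had the next largest ratio, 0.45 in the other direction. The 12 trithorax and H3K27 demethylase genes with a probe were all detected, with a median of -0.02 and the largest ratios at Kmt2d, an H3K4 methyltransferase gene (-0.61), and Kdm6a, an H3K27 demethylase gene (-0.31). The probes of Kmt2d disagreed, since 2 dimmer ones had ratios of 0.17 and 0.18.

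Regulators that set Hox expression in the embryo were on both arrays in 5 of 13 cases, where 68.9% of all named genes were. Zbtb16, a repressor of limb Hox genes, had a log2 ratio of 0.35 and Egr2, an activator in the hindbrain, one of -0.11. Cdx2, Cdx4, Evx1 and Evx2 were on neither array, and Cdx1 was only on the array before loading. Gdf11, whose protein sets the position of the trunk-to-tail change in Hox expression, was on the array of 24 h only, since it read 13.02 before loading, not well above background, and 96.1 at 24 h. It was at least 5.56-fold higher at 24 h, on 1 spot beside 3 spots that had also risen more than 2-fold, and it was picked out after its value was seen. Retinoic acid switches on anterior Hox genes, and 16 of 19 genes of its pathway were detected, with a median of 0.11 and none past 2-fold. Aldh1a1, which encodes a retinoic acid-forming enzyme, read 525 and 939 (0.84, error 0.20), and Aldh1a3, of the same family, had a ratio of 0.64.

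Other transcription factors of position were set beside the Hox genes. For their counts, the share detected over all named genes was 68.9%. Of 24 limb genes, 20 were detected, with a median of -0.06, none past 2-fold and the largest ratios at Meox1 (0.60) and Lhx9 (-0.53). For Lhx9 the direction is not settled, since its 2 dimmer detected probes had ratios of 0.42 and 0.17. Tbx5, which marks the forelimb, read 803 and 1061, Tbx4, which marks the hindlimb, 1595 and 1501, and Pitx1, also of the hindlimb, 24503 and 26157. These 3 were picked out after their values were seen, and all were well above background on both arrays. Of 19 craniofacial genes 12 were detected, with a median of -0.05 and the largest ratios at Pax3 (0.35) and Dlx2 (-0.33). Another 2 craniofacial genes, picked out after their values were seen, were well above background before loading only. Lhx8 read 82.1 and 4.55, at least 4.61-fold higher before, with 5 of 15 spots beside it more than 2-fold down, and Dlx6 read 41.3 and 12.4, at least 2.32-fold higher before. Of 12 axial skeleton genes 7 were detected, with a median of 0.13. Uncx, which marks the posterior part of each vertebral precursor, was the only one of the position genes on both arrays past 2-fold, at 188 before and 415 at 24 h (1.15, error 0.21), and Foxc2 had -0.26.

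Protein-coding genes beside the 4 clusters served as a local comparison. Of 15 with a probe, 10 were detected (68.9% of all named genes were). Those 10 had a median of -0.02 against 0.14 for the Hox genes, and none of the 10 was past 2-fold. The largest ratios were those of Snx10 near Hoxa (0.33, and 0.60 on its other probe) and Lnpk near Hoxd (-0.32). Skap1 near Hoxb and Jazf1 near Hoxa, picked out after their values were seen, were well above background before loading only. Skap1 read 38.6 and 12.1, at least 2.17-fold higher before, and Jazf1 35.0 and 22.2 (log2 ratio -0.66, error 0.41).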

How the data were processed

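RNA of primary chondrocytes before and 24 h after loading was labelled with Cy3 and measured on 2 Agilent SurePrint G3 Mouse arrays, 1 per time point. The authors deposited the background-subtracted intensity of each spot, as Agilent Feature Extraction 10.10.1.1 processed it, without normalization between arrays. A table of the authors' values differed by at most 0.497%. The scanner named in the files differs from that of the methods.

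Of 59305 non-control spots, 255 that either array flagged as outliers were left out, spots of 1 probe were averaged, and each array was scaled on the log2 scale by its 75th percentile over 55678 probes. Well above background were 59.14% of spots before loading and 57.66% at 24 h, and 0 were saturated. Accessions of 27235 probes were named through RefSeq (GRCm38.p6). A gene was detected when its brightest probe was well above background on both arrays. A bound divides the higher intensity by the lowest intensity well above background on the other array (17.29 before, 17.8 at 24 h), after scaling. It is given only where the dim reading lay under that lowest intensity. Every Hox gene on an array is given with its values, except 1 that is counted but not reported here, and from each list the genes past 2-fold and the 2 largest ratios. Names outside this rule are said to be so. The members and lists were chosen with earlier results of these data known.

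Alternatives were other scalings, normexp correction (offset 50, on median spot intensity, since the files hold no mean) with limma 3.58.1 in R 4.3.3, other detection rules and other folds. The rest ran in Python 3.11.15 with numpy 2.4.6 and pandas 2.3.3.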

Additional observations from a re-analysis of the deposited data

How the results depend on the processing

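No gene list or count here has a replicate error, and no array could be left out, since each time point has 1. No paired analysis was possible because no test was made and each group holds 1 array. The count of coding Hox genes on both arrays was 26, 26 when any probe counted, 28 when 1 array was enough and 33 with the more lenient flag. The count of Hox genes more than 2-fold lower, 1, became 0 with normexp background correction, 0 when 2-fold had to be passed by more than 2 within-array errors and 0 without genes under 100 on both arrays. At a fold of 1.5, 2 genes were higher and 2 lower, in place of 0 and 1. The median log2 ratio, 0.14, ran from 0.03 over all 39 coding genes to 0.24 with scaling by array medians, which moved the median of all detected genes from -0.01 to 0.08. Scaling to the spike-in controls moved it to 0.07. For 22 of the 26 detected genes, the log2 ratio moved by less than its within-array error under each of the scalings and corrections run. For several settings this was fixed in advance. Scaling by medians, by detected probes or to spike-in controls shifts all ratios by the same amount, smaller than any of the errors. The authors' values differ by at most 0.497%. The other 4, Hoxa4 (0.20), Hoxb2 (-0.09), Hoxb3 (-0.37) and Hoxb13 (-0.36), moved with normexp correction alone. All 4 moved toward 0, the direction in which the offset of that correction draws dim ratios. The share of the offset in each shift was not tested. The sign changed under some setting in 4 genes, among them Hoxa7, Hoxb5 and Hoxc8. Leaving out genes under 100, or beside spots that changed together, was chosen after seeing the data. Signal near background limits what can be said of the 8 detected genes under 100.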
